A study of Danio rerio with 9 samples.

Results

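The genes described here encode 4 enzymes that make, break or modify hyaluronan and chondroitin sulfate, which are among the glycosaminoglycans of the extracellular matrix. They are *has2* (NM_153650 on the array), *hyal1* (NM_001039997), *chsy1* (NM_212678) and *chst11* (NM_212824). Each was found as the array row whose RefSeq mRNA identifier belongs to the gene in the zebrafish RefSeq annotation, which gave 1 row per gene, or 4 of 37176 transcripts. Any further rows of these genes under identifiers of other kinds were not looked for. All 9 arrays were hybridized with RNA from posterior tissue of wild-type AB zebrafish larvae at 3 days post-fertilization (dpf). The 5 cut samples came from larvae whose tail fins had been amputated behind the notochord at 2 dpf, 1 day before collection (1 day post-amputation, dpa), and the 4 uncut samples from larvae that had not been amputated. RNA of about 150 tails per condition was pooled and amplified before labeling, and it is not stated that replicates came from separate pools, so that p-values may measure technical spread only. Since whole tissue was pooled, fewer cells of a type and less RNA per cell cannot be told apart.

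Hyaluronan and chondroitin sulfate are both chains of alternating sugars that contain glucuronic acid, and both draw on the same activated precursor of that sugar. Hyaluronan is extruded at the plasma membrane by hyaluronan synthases such as Has2, carries no sulfate and is bound to no core protein. Hyaluronidases, among them Hyal1, cut it into shorter chains. Chondroitin sulfate is built in the Golgi on core proteins, where synthases such as Chsy1 extend the chain and sulfotransferases such as Chst11 add sulfate to its N-acetylgalactosamine. Hyaluronan binds chondroitin sulfate proteoglycans of the versican and aggrecan family, so that the products of both pathways meet in the matrix of wounds and of growing fins.

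The array values are on a log2 scale, had been corrected for background and normalized by the authors, and ranged from 3.17 to 15.99, with array medians of 8.54 to 8.63. The number of arrays, rather than a depth, limits the precision. Calls required a 1.5-fold difference in either direction together with a Benjamini-Hochberg adjusted p no higher than 0.1 in limma, fitted over all 37176 transcripts. Of these, 0.468% were called higher and 0.229% lower in cut tails, and the median log2 change of all transcripts was 0.04. These shares depend on single arrays: 174 transcripts were called higher and 85 lower, but 47 and 9 without uncut replicate 2, 47 and 7 without uncut replicate 4, and 326 and 544 without uncut replicate 3. Leaving out any 1 of the other 6 arrays gave 65 to 160 higher and 30 to 60 lower. The label of the tissue could be checked on few markers. None of 7 listed epidermal genes had a named row, and *fbln1*, the 1 with a named row of 7 genes listed for fin mesenchyme, had values of 10.84 to 11.31 in cut and 11.00 to 11.37 in uncut arrays. The 19 measured lens genes, which the tail should lack, had a median value between 6.92 and 7.26 in 7 arrays but reached 8.55 in cut replicate 5 and 11.76 in cut replicate 3. Cut replicate 3 was also the highest array in the pancreas gene *prss59.1*, at 11.62, against 8.62 to 9.77 in the others. The median of the 2 measured brain genes was highest there too, at 9.27, against 7.88 to 8.38 in the others. In cut replicate 5 the brain median was 8.26. Results are therefore also given without those 2 lens-high arrays.

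Among the 4 enzymes, the chondroitin sulfate synthase gene *chsy1* was the 1 called higher in cut tails, at 1.89-fold, as were 0.468% of all transcripts. The sulfotransferase gene *chst11* had a fold change of 1.35 and was not called. Every cut array was above every uncut array, as in 2.83% of all transcripts. The hyaluronan synthase gene *has2* and the hyaluronidase gene *hyal1* had fold changes of 1.197 and 0.953, and their groups overlapped. No gene of the 4 was called lower.

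*chsy1* encodes the synthase that lengthens the chondroitin chain by adding both of its sugars. In uncut tails its log2 values were 8.63, 8.07, 8.34 and 7.91 in replicates 1 to 4. In cut tails they were 9.30, 9.14, 9.06, 8.84 and 9.41 in replicates 1 to 5. The groups did not overlap, and the lowest cut array lay 0.21 above the highest uncut array, a gap smaller than the range within either group (0.57 in cut and 0.72 in uncut tails). Over all transcripts, 2.83% had every cut array above every uncut array. The means were 9.15 ± 0.22 (SD, n = 5) and 8.23 ± 0.32 (SD, n = 4), which gave a log2 change of 0.92 (SE 0.17, adjusted p = 0.0696 from limma). The 95% confidence interval of the fold change was 1.45 to 2.46. Under an exact permutation of the group labels (two-sided), p was 0.00794, the smallest value possible with 5 and 4 arrays. By p the transcript ranked 166 of 37176, and by size its change ranked 111 among the 174 transcripts called higher.

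The size of the *chsy1* change varied little with the arrays used, but its call did. With each array left out in turn, the log2 change ran from 0.81 to 1.05. The call was kept without cut replicate 4 and without uncut replicates 1 and 3. It was lost without cut replicates 1, 2, 3 and 5, with adjusted p of 0.140, 0.163, 0.124 and 0.117 from limma, and without uncut replicates 2 and 4, with 0.269 and 0.255. Without cut replicates 3 and 5, the arrays with the high lens values, the log2 change was 0.86 (adjusted p = 0.205 from limma), and the part of the lens signal in the result was not otherwise tested.

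**Figure D1:**
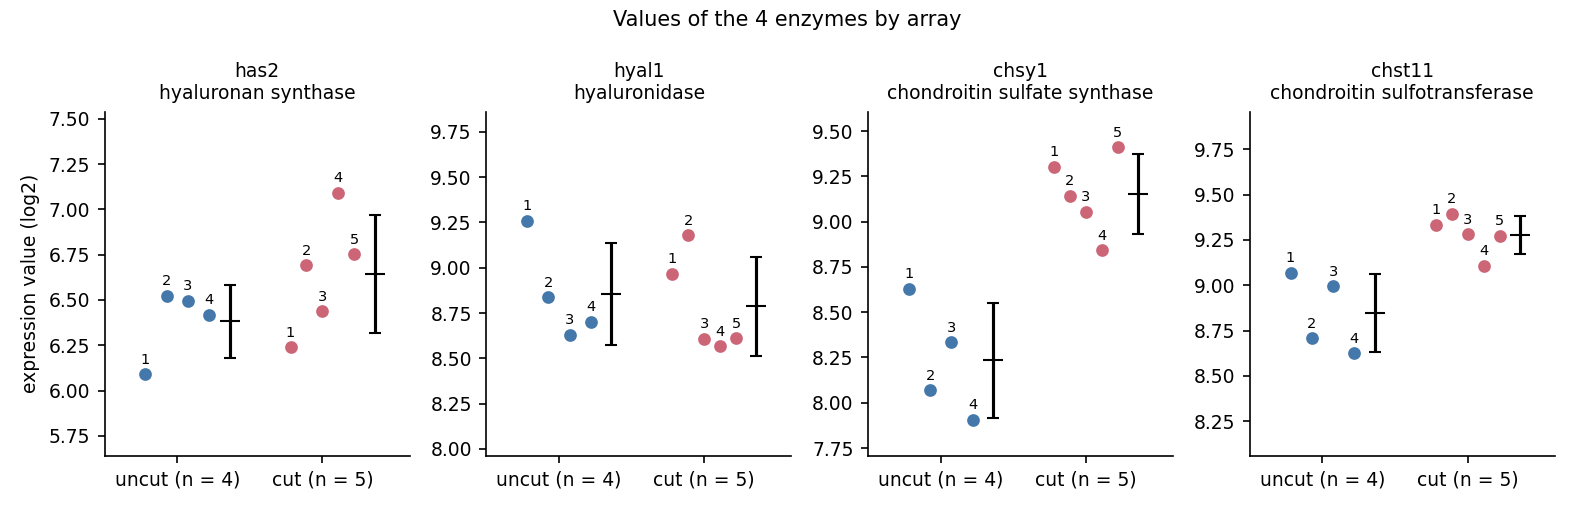
Expression values (log2) of the 4 enzyme genes in each array, with uncut arrays in blue and cut arrays in red, numbered by replicate; black bars give the mean and SD, and all panels span the same log2 width. The cut and uncut points are apart for *chsy1* (by 0.21) and *chst11* (by 0.04) and mixed for *has2* and *hyal1*.

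*chst11* encodes a sulfotransferase that acts on the chain that Chsy1 extends. Its uncut values were 9.07, 8.71, 8.99 and 8.62 in replicates 1 to 4, and its cut values 9.33, 9.39, 9.28, 9.11 and 9.27 in replicates 1 to 5. No cut array lay within the uncut range, though the gap between the groups was only 0.04. The same order of groups held for 2.83% of all transcripts. The means were 9.28 ± 0.11 (SD, n = 5) in cut and 8.85 ± 0.22 (SD, n = 4) in uncut tails. These correspond to a log2 change of 0.43 (SE 0.13, adjusted p = 0.219 from limma), with p = 0.00794 by exact permutation (two-sided). The 95% interval of the fold change, 1.11 to 1.63, excluded 1 and included 1.5, so that the gene missed both limits of the call without showing a change smaller than 1.5. Its residual spread was low, at percentile 18.4 of all transcripts, against percentiles 52.1 to 55.7 for the other 3 enzymes. Without cut replicates 3 and 5 the log2 change was again 0.43, with an adjusted p of 0.345 from limma.

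Both chondroitin sulfate genes ordered the uncut arrays in the same way, with replicate 1 highest, then 3, 2 and 4, and both were lowest among cut arrays in replicate 4. Once the mean of each group was subtracted, *chsy1* and *chst11* had a Pearson r of 0.85 over the 9 arrays. The same measure was -0.53 for *has2* and *hyal1*, -0.56 for *has2* and *chsy1* and -0.54 for *has2* and *chst11*. *hyal1* had 0.49 with *chsy1* and 0.59 with *chst11*. The arrays were normalized together and each is 1 amplified RNA sample, so these values describe 9 points that share their preparation.

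The muscle actin gene *acta1b*, the 1 with a named row of 7 listed muscle genes, varied between arrays in a similar way. Its values were 12.79, 11.12, 12.03 and 10.92 in the uncut and 12.86, 12.34, 13.16, 11.67 and 12.35 in the cut replicates. It ordered the uncut arrays as *chsy1* and *chst11* did, was also lowest among cut arrays in replicate 4, and its groups overlapped (log2 change 0.76, SE 0.40, adjusted p = 0.491 from limma). Its deviations from the group means had an r of 0.77 with those of *chsy1*, 0.85 with *chst11*, 0.43 with *hyal1* and -0.77 with *has2* over the 9 arrays. Other markers with 1 named row were less like *chsy1* and *chst11*. The r values with these genes were 0.14 and -0.22 for *fbln1*, and -0.27 and -0.21 for *prss59.1*. For the macrophage gene *csf1ra* they were -0.33 and -0.02, with 0.69 for *has2*. No covariate fit was run for these other markers. A fit with *acta1b* as a covariate was added after its likeness to *chsy1* and *chst11* had been seen. In that fit the log2 change was 0.70 for *chsy1* (SE 0.15, adjusted p = 0.212 from limma, no longer called) and 0.28 for *chst11* (SE 0.12, adjusted p = 0.404). For *has2* it was 0.49 (SE 0.16, adjusted p = 0.341 from limma). The share of muscle in each sample was not measured, and its part in these changes was not tested.

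**Figure D2:**
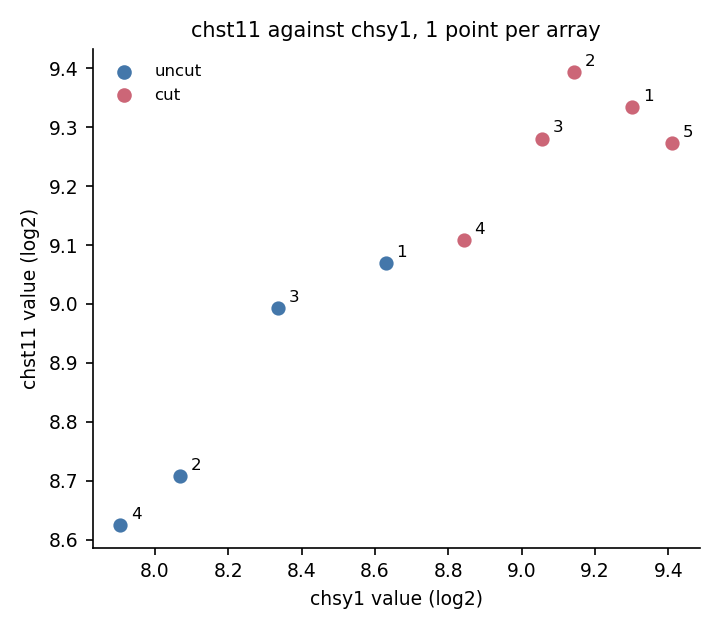
Value of *chst11* (log2) against that of *chsy1* (log2), 1 point per array, numbered by replicate, with uncut arrays in blue and cut arrays in red. All 5 cut arrays lie above and to the right of the 4 uncut arrays, and the 4 uncut arrays have the same order in both genes (r after subtraction of the group means 0.85).

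*has2* encodes the hyaluronan synthase that acts in early zebrafish development, where cells that migrate toward the midline depend on it. Its values were 6.09, 6.52, 6.50 and 6.42 in the uncut and 6.24, 6.69, 6.44, 7.09 and 6.75 in the cut replicates. Cut replicates 2, 4 and 5 lay above every uncut array, whereas cut replicates 1 and 3 lay within the uncut range. The log2 change of 0.26 (SE 0.18, adjusted p = 0.605 from limma) had a confidence interval of the fold change from 0.911 to 1.57, and p was 0.238 in the two-sided exact permutation test. The interval thus includes both no change and a change of 1.5. The mean value lay at percentile 19.7 of all transcripts, a dim signal, and whether it exceeded background was not analysed. By in situ hybridization at 1 dpa, the study saw no *has2* transcripts in amputated larval tails. With each array left out in turn, the log2 change ran from 0.15, without cut replicate 4, the highest array, to 0.36, without cut replicate 1, the lowest cut array. Without cut replicates 3 and 5 it was 0.29 (adjusted p = 0.639 from limma).

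*hyal1* encodes a hyaluronidase. Its values were 9.26, 8.84, 8.63 and 8.70 in the uncut and 8.97, 9.18, 8.61, 8.57 and 8.61 in the cut replicates. No cut array lay above the highest uncut array, and cut replicates 3, 4 and 5 lay just below the lowest. Its log2 change of -0.07 (SE 0.18, adjusted p = 0.913 from limma) came with a fold change between 0.725 and 1.25 at 95% confidence, and exact permutation gave p = 0.690 (two-sided). This interval excludes a rise or a fall of 1.5-fold, but its direction is not settled. The log2 change became 0.13 with array weights. It was 0.06 when uncut replicate 1 was left out and 0.05 when cut replicates 3 and 5 were.

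The chondroitin sulfate and hyaluronan enzymes were next compared within each array, which asks whether their changes after amputation were unequal. The hyaluronan side held only *has2* and *hyal1*. *has3*, which the study lists as upregulated on these arrays, was not compared, so the pairs do not describe hyaluronan enzymes as a whole. Levels of different genes cannot be set against each other on these arrays, and only the shift of each difference between the groups is read. *chsy1* minus *hyal1* was -0.63, -0.77, -0.29 and -0.80 in the uncut and 0.33, -0.04, 0.45, 0.28 and 0.80 in the cut replicates. Every cut array was above every uncut array. The log2 change of *chsy1* exceeded that of *hyal1* by 0.99 (SE 0.18, 95% confidence interval 0.55 to 1.42). Over the 4 pairs of genes compared, this was the 1 that passed an adjusted p of 0.05 in the two-sided exact permutation test (p = 0.00794, adjusted p = 0.0317). That limit is stricter than the 0.1 used for the calls. At 0.1, *chst11* minus *hyal1* would pass too (adjusted p = 0.0635 in the exact permutation test), but not without the 2 lens-high arrays (adjusted p = 0.171). Without those 2 arrays the excess of *chsy1* over *hyal1* was 0.81 with an adjusted p of 0.114 in the exact test. With single arrays left out this excess was 0.88 to 1.095 and passed 0.05 in 1 of 9 cases, without uncut replicate 3. With fewer arrays the smallest p possible in this test is itself higher. The study lists *chsy1* as upregulated on these same arrays, and the pairs were chosen with earlier results of these data known. *chsy1* alone also had p = 0.00794 in the exact permutation test, so the pair result is not independent of its separation.

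For *chsy1* minus *has2*, the uncut values were 2.54, 1.55, 1.84 and 1.49 and the cut values 3.06, 2.45, 2.62, 1.75 and 2.66. Uncut replicate 1 lay above cut replicates 2 and 4, so that the groups overlapped. The difference of the changes was 0.66 (95% confidence interval -0.11 to 1.42, exact permutation p = 0.0794, adjusted p = 0.106). Without the 2 lens-high arrays it was 0.57 (adjusted p = 0.343 in the exact permutation test). A larger response of *chsy1* than of *has2* was therefore not shown, although only the former was called.

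*chst11* minus *hyal1* was -0.19, -0.13, 0.36 and -0.08 in the uncut and 0.37, 0.21, 0.67, 0.54 and 0.66 in the cut replicates. Uncut replicate 3 lay above cut replicate 2. The changes differed by 0.50 (95% confidence interval 0.15 to 0.85, exact permutation p = 0.0317, adjusted p = 0.0635). *chst11* minus *has2* ranged from 2.18 to 2.98 in uncut and from 2.02 to 3.10 in cut tails, and the changes differed by 0.17 (95% confidence interval -0.45 to 0.79, exact permutation p = 0.524, adjusted p = 0.524). These last groups overlapped nearly throughout. Without the 2 lens-high arrays the changes of *chst11* and *has2* differed by 0.14 (adjusted p = 0.686 in the exact permutation test). Those of *chst11* and *hyal1* then differed by 0.38 (adjusted p = 0.171 in the same test). The mean of the 2 chondroitin sulfate genes minus the mean of the 2 hyaluronan genes was 1.17, 0.71, 1.101 and 0.70 in the uncut and 1.72, 1.33, 1.65, 1.15 and 1.66 in the cut replicates. Cut replicate 4 lay just under uncut replicate 1, and the other 4 cut arrays lay above all uncut arrays.

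**Figure D3:**
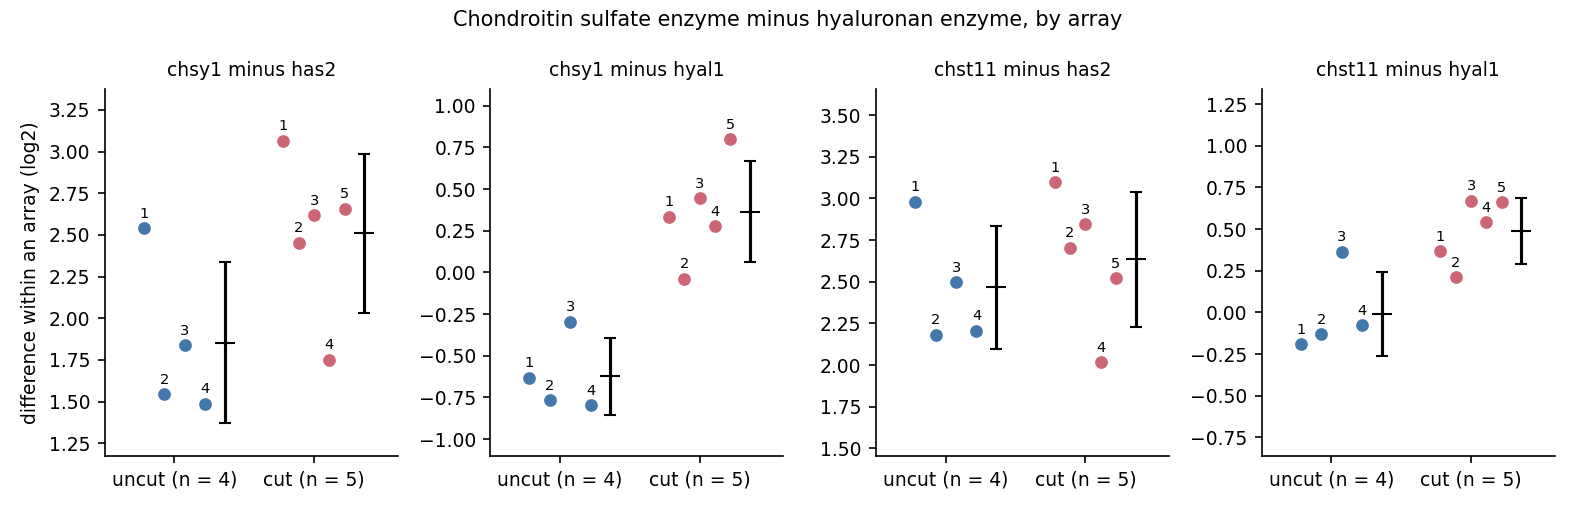
Difference within each array (log2) between a chondroitin sulfate enzyme gene and a hyaluronan enzyme gene, with uncut arrays in blue and cut arrays in red, numbered by replicate; black bars give the mean and SD, and all panels span the same log2 width. The groups are apart for *chsy1* minus *hyal1* and overlap in the other 3 pairs, most for *chst11* minus *has2*.

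The surrounding pathway was read from 185 listed genes of hyaluronan, chondroitin, heparan and keratan sulfate, of which 32 had a named array row. Other members are on the array under identifiers that carry no gene name here. The study lists *has3*, *vcana* (versican), *papss1* and *b4galt7* as upregulated in cut tails on these arrays. These genes and *has1* were not analysed here. The counts and medians below cover named rows only and do not describe the rest of each list, and of the hyaluronan synthases only *has2* is described. Of the 32, 1 (3.12%, against 0.468% of all transcripts) was called higher, which is *chsy1*, and 0 were called lower. *chsy1* was chosen for this report and is listed as upregulated by the study. Of the 28 other than the 4 enzymes, 0 were called higher. At an unadjusted p under 0.05 from limma, 3 of the 32 were higher and 2 were lower, against 6.46% and 5.71% of all transcripts. The 3 include *chsy1* and *chst11*, and of the 28 others 1 was higher and 2 were lower. The median log2 change of the 32 was 0.09, and 0.08 without the 4 enzymes, against 0.04 over all transcripts.

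Next to *chsy1* in the pathway, *chsy3*, which encodes a second chondroitin sulfate synthase, had values of 10.08 to 10.28 in uncut and 9.97 to 10.27 in cut tails and a log2 change of -0.06 (SE 0.11, adjusted p = 0.877 from limma). The log2 changes of *chsy1* and *chsy3* differed by 0.97, a description with no test, since the pair was set side by side after both values had been seen. *chst12a*, which encodes another chondroitin sulfotransferase, had a log2 change of 0.17 (SE 0.12), and its groups overlapped. The core protein gene *bcan* (brevican), the 1 of 20 listed chondroitin sulfate proteoglycans with a named row, had a change of 0.27 (SE 0.13, adjusted p = 0.456). *ids*, which encodes a lysosomal sulfatase of dermatan and heparan sulfate, had a change of -0.37 (SE 0.20, adjusted p = 0.496).

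Of 32 listed genes that supply the linker sugars and precursors, 6 had named rows. Of these, 5 had a log2 change above 0, as did 57.5% of all transcripts, and none was called. *papss1* and *b4galt7*, which the study lists as upregulated, were not among these 6. The largest values were those of *papss2a*, which encodes a synthase of the sulfate donor PAPS, at 0.28 (SE 0.16), and *gfpt1*, which encodes the entry enzyme of hexosamine synthesis, at 0.25 (SE 0.16). *slc35b3*, a transporter gene for PAPS, had 0.13, and *gfpt2*, which encodes a relative of Gfpt1, had 0.10. Among the hyaluronan genes other than the enzymes above, *spam1*, which encodes another hyaluronidase, had a log2 change of 0.01 (SE 0.23), and *hapln2*, which encodes a link protein that joins hyaluronan to proteoglycans, had 0.08 (SE 0.15). All of these groups overlapped.

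Among 13 heparan sulfate enzymes with named rows, none was called, and the median log2 change was 0.04. The sulfotransferase gene *hs3st4* had a change of 0.43 (SE 0.14, adjusted p = 0.247 from limma), about that of *chst11*. Its cut values of 6.19 to 6.54 lay above its uncut values of 5.59 to 6.07, as in 2.83% of all transcripts. The 5.59 was uncut replicate 1, far from the nearest uncut value of 6.06. *hs3st1*, a relative of *hs3st4*, had -0.40 (SE 0.18, adjusted p = 0.407), with overlapping groups. *hs3st2*, of the same family, had 0.29, and the epimerase gene *glcea* had 0.37, both with overlapping groups. The heparan sulfate core protein genes *sdc4* (syndecan) and *gpc1b* (glypican) had 0.22 (SE 0.12) and 0.26 (SE 0.16). The lowest change of all 32 was that of *fmoda*, which encodes the small collagen-binding proteoglycan fibromodulin, at -0.55 (SE 0.13, adjusted p = 0.139 from limma). Its cut values of 14.28 to 14.74 lay below its uncut values of 14.91 to 15.13, as in 1.89% of all transcripts, and it was not called.

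**Figure D4:**
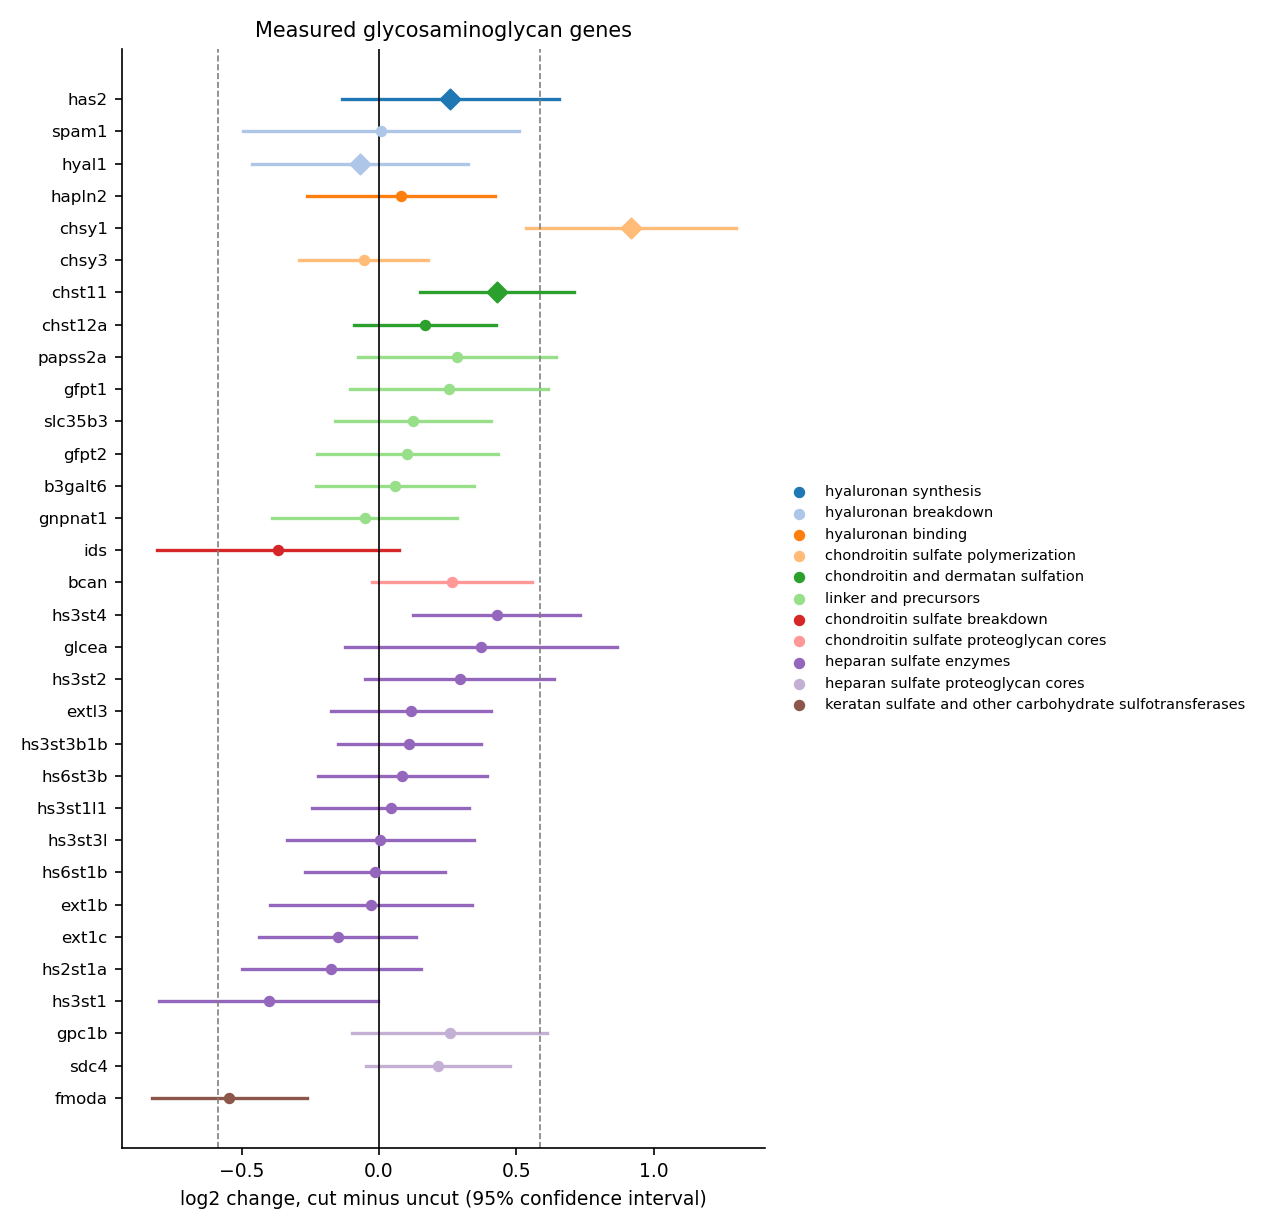
Log2 change (cut minus uncut) of the 32 measured glycosaminoglycan genes with its 95% confidence interval from limma, colored by list; diamonds mark the 4 enzymes described here, and dashed lines a fold change of 1.5 in either direction. *chsy1* at 0.92 is the 1 gene beyond a dashed line, and *fmoda* at -0.55 is the lowest.

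The gene-named transcripts whose values followed each enzyme most closely were then searched for among the other 2662, by Pearson r over the 9 arrays. For *chsy1* they were *rgs3a*, which encodes a regulator of G protein signaling (r = 0.98), *med24*, a Mediator subunit (r = 0.97), and *mogs*, a glucosidase of N-glycan processing (r = 0.96). These had log2 changes of 0.47, 0.77 and 0.78, and none of the 3 was called. For *chst11* they were the connexin gene *gja5a* (r = 0.98), the nucleotidase gene *entpd4* (r = 0.98), which was called higher at 0.95 (SE 0.16, adjusted p = 0.0464 from limma), and *chsy1* itself (r = 0.95). For *has2* they were the smooth muscle myosin gene *myh11a* (r = 0.96), the transcription factor gene *sp3a* (r = 0.94) and *zgc:113426* (r = 0.94). For *hyal1* they were the Mediator subunit gene *med19a* (r = 0.94), *nansb*, which encodes a sialic acid synthase (r = 0.92), and *ccnc*, which encodes cyclin C (r = 0.92). The neighbors of *has2* and *hyal1* had log2 changes between -0.13 and 0.23 and were not called. With 9 arrays and 2662 candidates, these are descriptions of likeness only. Group means were not subtracted for these r values, so they include any shift between cut and uncut arrays. For *chsy1* and *chst11*, r was 0.95 here and 0.85 after that subtraction.

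**Figure D5:**
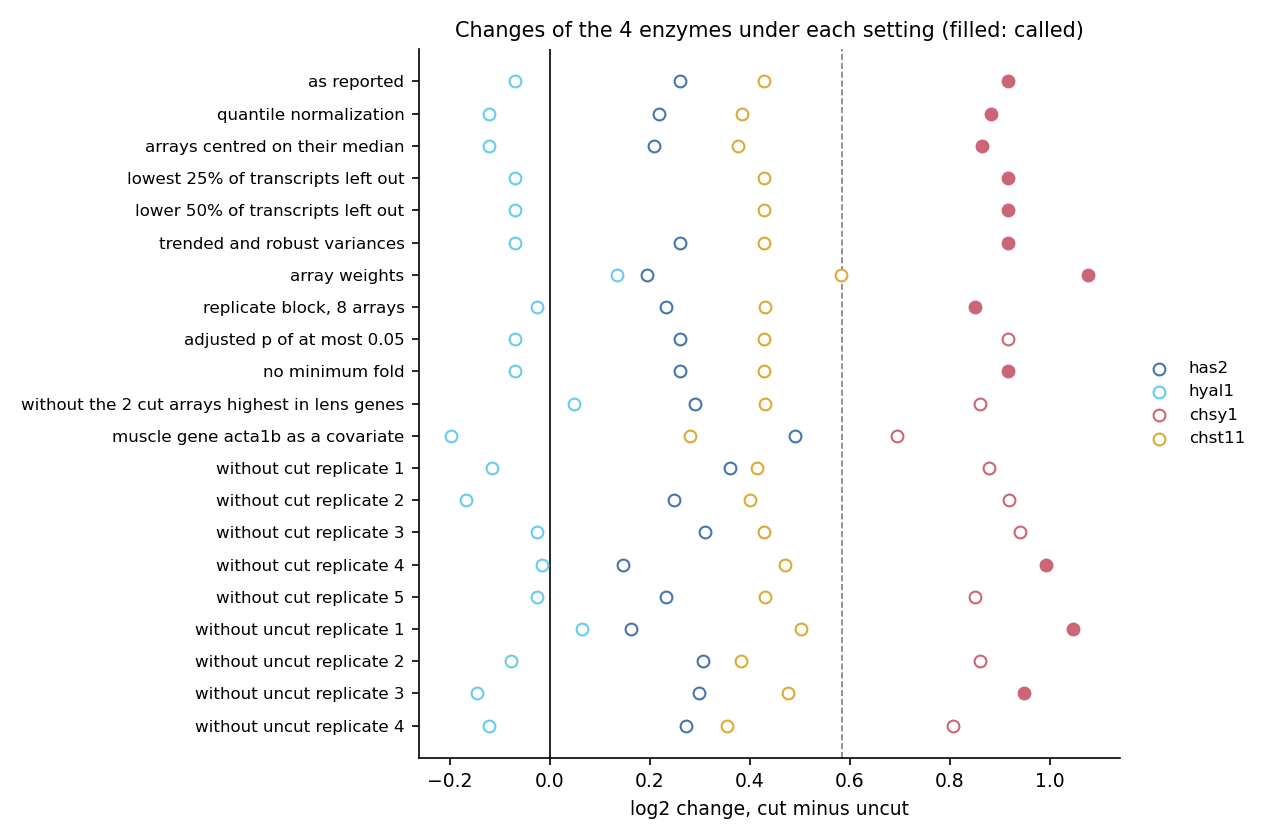
Log2 change (cut minus uncut) of the 4 enzyme genes under each processing setting, with filled points where the gene was called under that setting and a dashed line at a fold change of 1.5. *chsy1* lies beyond the line in every row and is filled in some, *chst11* lies below it, and *hyal1* lies on both sides of 0; *has2* has no point where dim transcripts were left out.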

How the data were processed

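The values are from a NimbleGen zebrafish array with 1 color (5 cut and 4 uncut samples). Data compilation by the authors used NimbleGen software, followed in ArrayStar (version not given in the sources used here) by RMA background correction and a step named quartile normalization, and 1 log2 value per transcript was deposited. The highest value, 15.99, lies just below 16.00, the log2 of the largest 16-bit scanner reading. The summary of probes into transcripts is not given in the sources used here. Values were used as deposited.

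Genes were named by RefSeq accession (assembly GRCz12tu): 2663 of 3055 RefSeq mRNA rows matched 1 gene (7.16% of all rows). Cut and uncut arrays were compared with limma 3.58.1 in R 4.3.3, with condition as the only term, since the sources do not state that replicate numbers pair samples. On simulated arrays the model called 16%, 64%, 82% and 98% of transcripts with log2 changes of 0.585, 1, 1.5 and 2. The simulated errors were normal, independent and of equal quality in all arrays. The real arrays had weights of 0.40 to 3.02, so these shares may not hold for them. Permutation tests were two-sided and exact, over 126 arrangements, with Benjamini-Hochberg adjustment over the 4 pairs of genes. Confidence intervals of the pair differences assume normal errors with a pooled SD. Named are the 4 enzymes, up to 4 genes per pathway list (lowest p first) and the 3 transcripts most like each enzyme. The enzymes, lists and tests were chosen with earlier results of these data known. Alternatives were other scalings, filters, variance models, array weights, a replicate block, other thresholds and arrays left out.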

Additional observations from a re-analysis of the deposited data

Results flagged for a closer look

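In 72 groups of arrays (cut or uncut, for the 4 enzymes, their pairwise differences and the other 28 glycosaminoglycan genes), 4 held a value far from the rest by Dixon's test, where chance gives 3.6. None of the 4 concerned an enzyme described above, and all 4 were values of uncut replicate 1. *hapln2* was 6.14 there, against 6.43 to 6.46 in the other uncut arrays. *slc35b3* was 12.71, and the nearest other uncut array was at 12.98. *ext1c*, which encodes a heparan sulfate polymerase, was 6.18, and the nearest was at 5.72. *hs3st4* was 5.59, and the nearest was at 6.06. Array weights gave uncut replicate 1 a weight of 0.40.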

How the results depend on the processing

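The log2 change of *chsy1* was 0.70 to 1.08 over 20 alternatives. It was called in 11 and lost the call with the muscle gene *acta1b* as a covariate (0.70, added after the data had been seen), with an adjusted p of at most 0.05 (0.92, adjusted p = 0.0696 from limma), without the 2 cut arrays highest in lens genes (0.86) and in 6 of the 9 fits with 1 array left out (0.81 to 1.05 over all 9). The stricter threshold calls fewer by construction, and otherwise the cause was not tested. Among the 11, the setting with no minimum fold uses the same fit and keeps the call by construction. The count of glycosaminoglycan genes called higher followed *chsy1*: 0 with the covariate, 0 with the stricter p, 0 without the 2 lens-high arrays, and 0 to 1 over the fits with 1 array left out. *hyal1* reversed to 0.13 with array weights, 0.048 without the 2 lens-high arrays and 0.064 without uncut replicate 1 (-0.17 to 0.064 over the arrays left out). *chst11* and *has2* were called in none, at 0.28 to 0.58 over 20 and 0.15 to 0.49 over 18 alternatives. Both filters on dim transcripts left out *has2*. With array weights *chst11* had an adjusted p of 0.0229 from limma and missed the fold of 1.5 (1.497). The number of transcripts called higher was 1371 with array weights, 377 with the block, 90 at the stricter p, 44 with the covariate, 97 without the 2 lens-high arrays and 47 to 326 with single arrays dropped, against 174.

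*chsy1* minus *hyal1* was 0.81 without the 2 lens-high arrays and 0.88 to 1.095 when single arrays were dropped, and its adjusted p then ran from 0.0357 to 0.114. The smallest exact p is 0.0286 for 4 arrays against 4 or 3 against 4, and 0.0179 for 5 against 3, so that the adjustment over 4 pairs can hardly be passed there. *chst11* minus *hyal1* was 0.38 without the 2 lens-high arrays (adjusted p = 0.171 in the exact permutation test). It was 0.44 to 0.62 when single arrays were dropped and passed without uncut replicate 3 (0.62, adjusted p = 0.0357 in the same test).

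Whether a shared replicate number marks a pair is not stated. The deviations of the cut and uncut array of a number had correlations of 0.58, 0.09, 0.25 and 0.32. All were positive, and 1 was under the limit of 0.1. Correlations of arrays with unlike numbers are not given, so these values do not decide whether numbers mark pairs. With the replicate block over the 8 arrays of shared numbers, *chsy1* was called at 0.85 (adjusted p = 0.0533 from limma), and *has2*, *hyal1* and *chst11* were not. *chsy1* minus *hyal1* was 0.88 with the block (adjusted p = 0.167), where 4 pairs cannot go below p = 0.125 in an exact test.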

Other observations

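Uncut replicate 1 was at an end of the uncut range in all 4 enzymes, which was noticed after the values had been seen and not tested, and none of these 4 values was far from the rest by Dixon's test. *has2* was lowest there, at 6.09, and *hyal1*, *chsy1* and *chst11* were highest among the uncut arrays, at 9.26, 8.63 and 9.07.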
